A study of Mus musculus with 9 samples.

Results

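Yap1, Wwtr1 (the gene for TAZ), Tead1, Tead2, Tead3, Tead4 and Vgll4 encode the nuclear end of the Hippo pathway, and they were chosen by gene symbol. Of these 7 genes 6 were found among the 16070 rows of the table, and Tead3 was not analysed here. Yap and TAZ are transcriptional coactivators with no DNA-binding domain of their own. When the Hippo kinases are active they phosphorylate both proteins, which are then held in the cytoplasm or degraded. Otherwise Yap and TAZ enter the nucleus and bind Tead factors, which recognise DNA. Vgll4 competes with Yap for Tead. In the blastocyst Yap is nuclear in the outer cells, where it acts with Tead4 to turn on Cdx2 and Gata3 and so sets trophectoderm, the layer that forms the placenta. In the inner cells of the early blastocyst Yap is largely kept out of the nucleus. The RNA values below do not show where Yap protein lay.

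RNA was measured in 9 libraries from E4.5 mouse embryos. All groups share the background C57BL/6, culture in vitro and an age of 4.5 days counted from microinjection. There were 3 libraries each with the genotype labels wild type (WT), H3R17H substitution, in which arginine 17 of histone H3 is replaced by histidine, and Carm1-/-, loss of the methyltransferase that modifies this residue. What was injected into the WT embryos is not given in the sources used here, and neither is whether edited embryos were mosaic. The series title names editing by CRISPR-Cas9 and Yap signalling, so the comparisons ask whether either label goes with a change in the effectors of that pathway. The unit is FPKM, in which fragment counts are divided by the length of the transcript and the size of the library, so that levels of different genes can be set side by side. The number of reads behind them is unknown. The labels call the material an embryo and the protocol a single cell derived from embryos, and nothing says that libraries of a group came from separate embryos. The p-values therefore measure only the spread between these libraries.

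Some facts of the libraries touch every value below. Carm1 (chromosome 9, 21546894 to 21592623, plus strand, GRCm38), which checks the labels, had 6.65 to 8.86 FPKM in WT, 0.0215 to 1.88 FPKM under the H3R17H label and 6.44 to 12.7 FPKM under the Carm1-/- label. It was thus low under the label that does not name it, and the table's columns carry the names Carm for the libraries titled H3R17H and Hist for those titled Carm1-/-. Every group name below is the label. The summed FPKM of 4 Y-linked genes was 30.7 to 35.7 in WT, 36.6 in replicate 1 labelled H3R17H, 28.1 in replicate 1 labelled Carm1-/- and at most 0.00796 in the other 4 libraries, so that WT and absence of Y-linked RNA do not occur together. On the first principal component, with 36.2% of the variance, replicate 1 labelled Carm1-/- lay at -43, among the WT libraries (-44.1 to -33.8). The other edited libraries lay at 1.72 to 70.7. All 10 everyday genes checked, such as Actb, and all 54 values of the 6 effectors were above 0. The summed level of 13 trophectoderm markers was 5553 to 8368 FPKM in WT, 1632 to 4590 FPKM under the H3R17H label, and 8834, 2037 and 2591 FPKM in replicates 1 to 3 under the Carm1-/- label. Most of this sum was Krt8 and Krt18, at 2229 and 2663 FPKM of 5553 in WT replicate 1 and at 4025 and 4153 FPKM of 8834 in replicate 1 labelled Carm1-/-. Of 12 tested trophectoderm markers 9 had a lower mean than WT under either label (median log2 difference -0.89 and -0.76) and 3, Krt7, Tfap2c and Hand1, a higher one. Of the 13, Hand1 was at 0 in every WT library and no marker was at 0 throughout an edited group. The sums over 10 epiblast markers were 198 to 252, 262 to 282 and 256 to 342 FPKM in the same order of groups, and none of these markers was at 0 throughout a group. Zfp42 (45.5 to 50.2, 81.8 to 107 and 74.3 to 136 FPKM) and Pou5f1 (41.9 to 91.2, 79.5 to 109 and 63.6 to 118 FPKM) made up much of that sum. Nanog (39.9 to 56.9, 40.3 to 63.5 and 36.1 to 47.5 FPKM) and Tdgf1 (39.9 to 56.1, 5.94 to 18.4 and 7.56 to 79.5 FPKM) made up much of the rest. Nanog overlapped WT under both labels, and Tdgf1 lay below WT under the H3R17H label. By sign 6 of the 10 epiblast markers were lower under the H3R17H label and 5 under the Carm1-/- label (median log2 difference -0.21 and -0.05). The sums over 11 primitive endoderm markers were 173 to 226 FPKM in WT, 151 to 181 FPKM under the H3R17H label and 188, 91.6 and 102 FPKM in replicates 1 to 3 labelled Carm1-/-, and none was at 0 throughout a group. In WT most of the sum was Dab2, at 124 FPKM of 173 in replicate 1. Dab2 was at 129, 34.2 and 49.7 FPKM in replicates 1 to 3 labelled Carm1-/-. Of 10 tested markers 7 were lower by sign under each label (median log2 difference -0.44 and -0.23) and 3 higher. Gata6 lay above WT under the H3R17H label (36.2 to 52.4 against 21.7 to 29 FPKM). Pdgfra lay below WT there (0.00733 to 1.82 against 6.05 to 9.44 FPKM). Both overlapped WT under the Carm1-/- label.

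The sequences just upstream of the coactivator genes and of Vgll4 are shown because each holds the core of the element that Tead proteins bind, GGAATG. The runs are the 250 bases before the start of transcription, from RefSeq on GRCm38.p6, 5′ to 3′ on the strand of the gene, with the match in capitals. For Yap1 the window is chr9:8004597-8004846 on the minus strand, for Wwtr1 chr3:57575911-57576160 on the minus strand, and for Vgll4 chr6:114969204-114969453 on the minus strand, before a start that lies inside the annotated gene. Wwtr1 has 2 overlapping windows, of which the one farther upstream is shown.
Yap1: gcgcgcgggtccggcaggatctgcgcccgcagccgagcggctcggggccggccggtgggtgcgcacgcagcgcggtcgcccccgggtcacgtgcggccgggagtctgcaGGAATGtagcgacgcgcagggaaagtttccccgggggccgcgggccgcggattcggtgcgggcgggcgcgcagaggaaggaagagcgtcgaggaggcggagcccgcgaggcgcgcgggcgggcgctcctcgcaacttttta
Wwtr1: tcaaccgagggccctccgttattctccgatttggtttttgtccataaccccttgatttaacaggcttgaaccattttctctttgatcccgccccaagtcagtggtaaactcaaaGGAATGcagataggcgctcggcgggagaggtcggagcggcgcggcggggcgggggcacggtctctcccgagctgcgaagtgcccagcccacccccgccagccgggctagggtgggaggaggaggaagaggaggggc
Vgll4: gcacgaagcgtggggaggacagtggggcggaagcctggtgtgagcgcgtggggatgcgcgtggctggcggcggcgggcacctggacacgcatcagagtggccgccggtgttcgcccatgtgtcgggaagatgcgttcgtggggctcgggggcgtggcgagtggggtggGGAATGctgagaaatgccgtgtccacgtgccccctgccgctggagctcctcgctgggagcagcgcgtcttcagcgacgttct
The match began 141 bases before the start in Yap1, 136 in Wwtr1 and 82 in Vgll4, each on the gene's own strand. Searched on both strands as GGAATG or CATTCC, the motif was in 12.6% of 32851 windows of this length, and 14.4% of the 27025 genes with a window held it in at least 1. RefSeq windows were matched for 5 of the 7 genes, and 4 of these genes, the 3 shown and Tead3, held the motif in at least 1 window, Tead3 having 3 windows and Wwtr1 2. The exception was Tead2, whose only window had none. The Yap1 window had 44 CpG dinucleotides, more than 99.5% of all windows, against 18 in Wwtr1, 28 in Vgll4, 7 in Tead2 and a median of 6 over all windows. A match shows only that these letters are present, not that Tead binds there.

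In WT embryos Tead4, the Tead factor needed for trophectoderm, had the highest level of the 6 genes and Tead1 the lowest. By mean FPKM in WT (± SD, n = 3) the order was Tead4 at 27 ± 7.08, Wwtr1 at 19 ± 4.72, Tead2 at 13.8 ± 5.18, Yap1 at 9.16 ± 0.565, Vgll4 at 6.38 ± 2.07 and Tead1 at 1.3 ± 0.721. The ranges of Tead4 and Wwtr1 overlapped, as did those of Wwtr1 and Tead2. Yap1 (8.73 to 9.8 FPKM) lay below all WT values of Tead2 and touched the range of Vgll4 (4.84 to 8.74 FPKM). In WT, 77.5% of the 11850 tested genes had a lower mean than Tead4, 59.1% a lower mean than Yap1 and 15.9% a lower mean than Tead1. Over all 9 libraries Tead4 was the highest of the 6 in 8, the exception being replicate 3 labelled Carm1-/-, where Wwtr1 led. Tead1 was the lowest in 8, the exception being replicate 2 labelled Carm1-/-, where Yap1 was lowest. Yap1 held rank 4 in all WT libraries, ranks 3, 5 and 4 in replicates 1 to 3 under the H3R17H label and ranks 5, 6 and 5 under the Carm1-/- label.

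**Figure D1:**
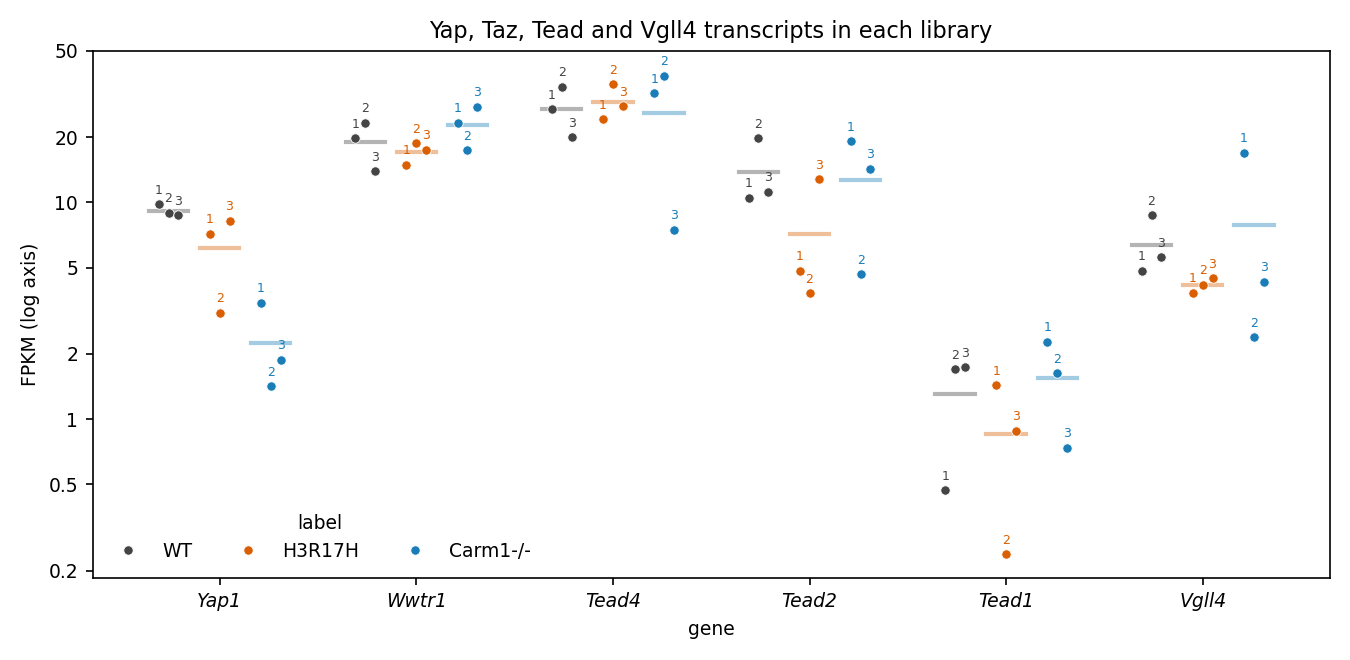
FPKM on a log axis for the 6 effector genes, with a point for each library (numbered by replicate, coloured by label) and a bar at the mean of 3 libraries. Yap1 lies at 8.73 to 9.8 FPKM in WT and at 1.42 to 3.45 FPKM under the Carm1-/- label, while the groups of Wwtr1 overlap.

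Yap1 (chromosome 9, 7931999 to 8004596, minus strand, GRCm38), the coactivator in the series title, had the widest separation from WT of the 6 genes, under the Carm1-/- label. The WT libraries, replicates 1 to 3, had Yap1 at 9.8, 8.96 and 8.73 FPKM. The values were 7.18, 3.1 and 8.24 FPKM under the H3R17H label and 3.45, 1.42 and 1.88 FPKM under the Carm1-/- label. All 6 edited libraries thus lay below all 3 WT libraries, the nearest being replicate 3 labelled H3R17H. The edited groups overlapped each other, since replicate 2 labelled H3R17H was lower than replicate 1 labelled Carm1-/-. The mean was 6.18 ± 2.72 FPKM under the H3R17H label, 67.4% of that in WT, and 2.25 ± 1.06 FPKM under the Carm1-/- label, 24.6% of that in WT (SD, n = 3).

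On the log2(FPKM + 1) scale, Yap1 differed from WT by -1.69 (SE 0.38, 95% interval -2.54 to -0.84) under the Carm1-/- label. This did not pass (limma, adjusted p = 0.2; unadjusted p = 0.00118). The groups did not overlap, and in this comparison 9.71% of tested genes lay below WT without overlap. Under the H3R17H label the difference was -0.58 (SE 0.38, 95% interval -1.44 to 0.27; limma, adjusted p = 0.508), and 15.6% of tested genes lay below WT without overlap. Between the edited groups Yap1 differed by -1.11 (95% interval -1.96 to -0.26; limma, adjusted p = 0.508), so a difference between the 2 labels was not shown either. Without replicate 1 labelled Carm1-/- the difference from WT was -1.94 and passed (limma, adjusted p = 0.0303), and 2.14% of tested genes were then called lower and 2.5% higher. Without replicate 2 labelled H3R17H the difference of that group from WT was -0.22 (adjusted p = 0.883).

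Replicate 1 labelled Carm1-/- lay with WT on the first principal component and had the highest trophectoderm sum of all 9 libraries, 8834 FPKM, mostly of the 2 keratins. Its Yap1 was at 3.45 FPKM, and the lowest WT value was 8.73 FPKM. Among libraries with Y-linked RNA, Yap1 was at 8.73 to 9.8 FPKM in WT, 7.18 FPKM in replicate 1 labelled H3R17H and 3.45 FPKM in replicate 1 labelled Carm1-/-. Among those without it, Yap1 was at 3.1 and 8.24 FPKM under the H3R17H label and at 1.42 and 1.88 FPKM under the Carm1-/- label. Each edited label has only 1 library with Y-linked RNA. The one labelled H3R17H also held Xist, an X-linked RNA, at 4.84 FPKM. Xist was at 0.187 to 0.427 FPKM in WT and 0.259 FPKM in replicate 1 labelled Carm1-/-. In the libraries without Y-linked RNA it was at 16.6 to 32.5 FPKM. Why replicate 1 labelled H3R17H held both was not tested, and the sex term was set by Y-linked RNA alone. With a sex term the difference of the group labelled Carm1-/- from WT was -1.3 (limma, adjusted p = 0.907), a fit in which the edited groups are tied to WT only through replicate 1 of each. The part of sex, or of cell makeup, in the Yap1 difference was not tested. Fewer cells with Yap1 RNA and less of it per cell cannot be told apart here.

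**Figure D2:**
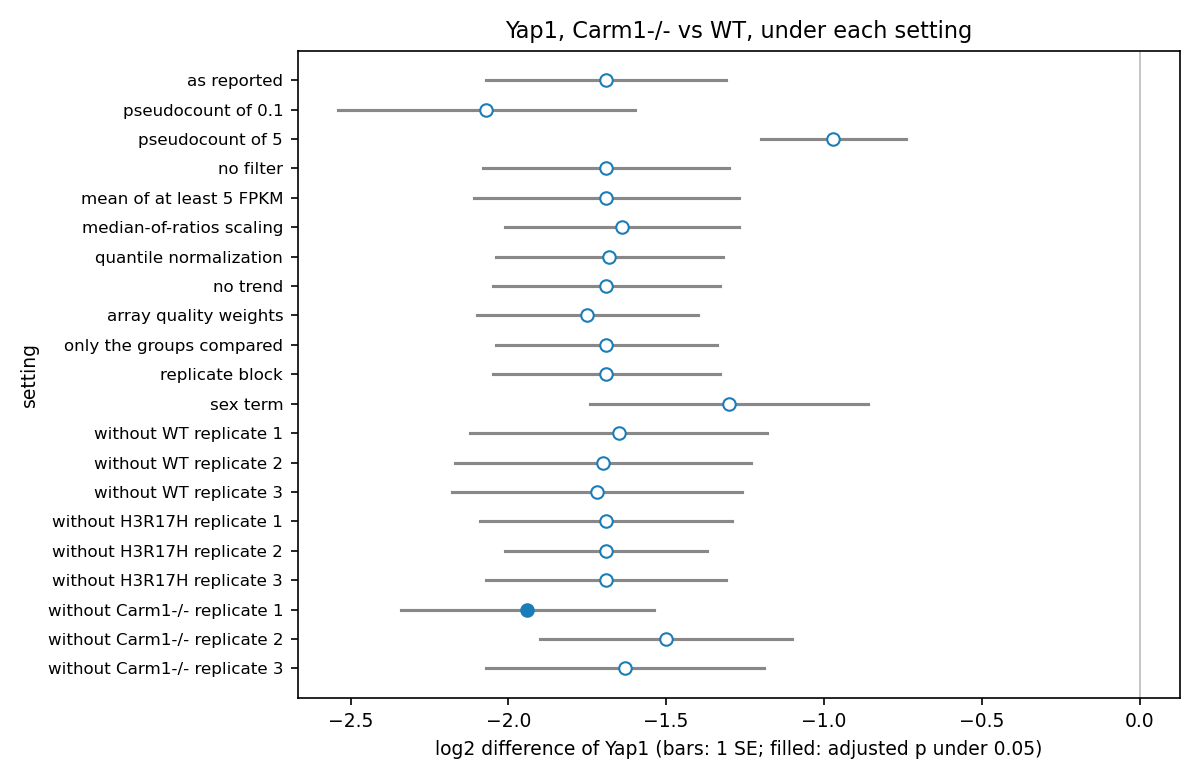
Log2 difference of Yap1 between the libraries labelled Carm1-/- and WT as reported and under 20 alternatives, with bars of 1 SE and filled points where the adjusted p is under 0.05. All points lie below 0, between -2.07 and -0.97, and the only filled one is without replicate 1 labelled Carm1-/-.

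Wwtr1 (chromosome 3, 57455649 to 57575910, minus strand), which encodes TAZ, the paralogue of Yap, showed no such separation. The WT libraries, replicates 1 to 3, had Wwtr1 at 19.7, 23.3 and 13.9 FPKM. The values were 14.9, 18.7 and 17.5 FPKM under the H3R17H label and 23.3, 17.4 and 27.6 FPKM under the Carm1-/- label. All values labelled H3R17H fell inside the WT range, and those labelled Carm1-/- overlapped it and reached above it. Its differences from WT were -0.12 (95% interval -0.74 to 0.5; limma, adjusted p = 0.87) and 0.26 (95% interval -0.36 to 0.87; adjusted p = 0.745). Differences within these intervals cannot be told from none.

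The share of Yap1 in the RNA of both coactivators was lowest under the Carm1-/- label. Yap1 made up 33.2%, 27.8% and 38.5% of the summed FPKM of Yap1 and Wwtr1 in WT replicates 1 to 3. Its share was 32.5%, 14.2% and 32% under the H3R17H label and 12.9%, 7.57% and 6.39% under the Carm1-/- label. The libraries labelled Carm1-/- lay below all others in this share, and the libraries labelled H3R17H overlapped WT. The sum of the pair overlapped between groups, at 22.7 to 32.2 FPKM in WT, 21.8 to 25.7 FPKM under the H3R17H label and 18.8 to 29.5 FPKM under the Carm1-/- label. The shares were not tested, since the genes were chosen with results known.

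**Figure D3:**
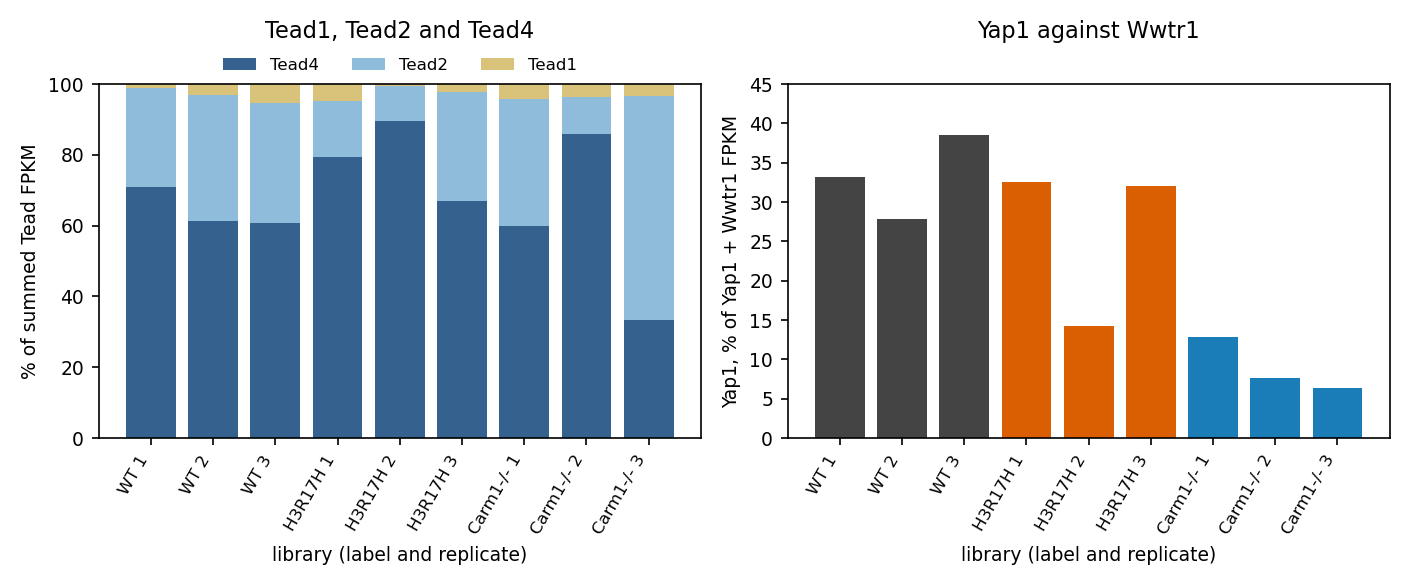
Left, shares of Tead4, Tead2 and Tead1 in their summed FPKM for each library (% of the sum); right, Yap1 as a percentage of Yap1 plus Wwtr1, coloured by label. Yap1 makes up 6.39% to 12.9% under the Carm1-/- label and 27.8% to 38.5% in WT, and Tead4 makes up the largest share in all libraries except replicate 3 labelled Carm1-/-.

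Of the DNA-binding partners, Tead4 (chromosome 6, 128224288 to 128300823, minus strand) was at 26.9, 34.2 and 20 FPKM in WT replicates 1 to 3. The values were 24.1, 35 and 27.8 FPKM under the H3R17H label. Under the Carm1-/- label it was at 31.8, 38.4 and 7.48 FPKM, the last of which stood apart as the lowest Tead4 value of the series. The groups overlapped, and the differences from WT were 0.11 (95% interval -1 to 1.23; limma, adjusted p = 0.942) and -0.3 (95% interval -1.42 to 0.81; adjusted p = 0.841). Replicate 3 decided the sign of the latter: without it the difference was 0.39 (adjusted p = 0.665).

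Tead2 (chromosome 7, 45215753 to 45233644, plus strand), another Tead of the early embryo, overlapped between the groups. The WT libraries, replicates 1 to 3, had Tead2 at 10.5, 19.8 and 11.2 FPKM. The values were 4.83, 3.81 and 12.8 FPKM under the H3R17H label and 19.1, 4.65 and 14.3 FPKM under the Carm1-/- label. Of the 6 edited libraries 3, at 3.81 to 4.83 FPKM, lay below all WT values, and the other 3 lay within the WT range. The differences from WT were -0.97 (SE 0.53, 95% interval -2.16 to 0.21; limma, adjusted p = 0.43) and -0.25 (SE 0.53, 95% interval -1.43 to 0.93; adjusted p = 0.883). Tead2 had the largest difference of the 6 genes under the H3R17H label, but its groups overlapped. Under the Carm1-/- label the difference was 0.29 without replicate 2 of that label and 0.02 without WT replicate 2.

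Tead1 (chromosome 7, 112679318 to 112906807, plus strand) was low throughout and reached 1 FPKM in 5 of 9 libraries. The WT libraries, replicates 1 to 3, had Tead1 at 0.471, 1.7 and 1.74 FPKM. The values were 1.43, 0.239 and 0.884 FPKM under the H3R17H label and 2.28, 1.63 and 0.738 FPKM under the Carm1-/- label. Within every group the highest value was at least 3.08 times the lowest. The differences from WT were -0.31 (SE 0.41) and 0.15 (SE 0.41), with adjusted p of 0.759 and 0.913 in limma and 95% intervals of -1.22 to 0.6 and -0.76 to 1.06. The groups overlapped, and at this level a pseudocount of 1 understates any change.

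Most of the measured Tead RNA came from Tead4 in 8 of 9 libraries. Tead4 made up 71%, 61.4% and 60.8% of the summed FPKM of Tead1, Tead2 and Tead4 in WT replicates 1 to 3. Its share was 79.4%, 89.7% and 67.1% under the H3R17H label and 59.8%, 86% and 33.3% under the Carm1-/- label. The sums were 32.9 to 55.7 FPKM in WT, 30.4 to 41.4 FPKM under the H3R17H label and 22.5 to 53.3 FPKM under the Carm1-/- label. The groups overlapped in both the share and the sum. In replicate 3 labelled Carm1-/- Tead2 made up 63.4% of the sum, and in replicate 2 of that label 10.4%, so libraries of 1 label lay at both ends.

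Vgll4 (chromosome 6, 114860628 to 114969994, minus strand), the cofactor that competes with Yap for Tead, was at 4.84, 8.74 and 5.58 FPKM in WT replicates 1 to 3. Its values under the H3R17H label were 3.83, 4.16 and 4.46 FPKM, close together and all below WT. Under the Carm1-/- label it was at 16.9, 2.38 and 4.31 FPKM, where replicate 1 was the highest of the series and the others lay below WT. The differences from WT were -0.49 (SE 0.53, 95% interval -1.67 to 0.69; limma, adjusted p = 0.705) and -0.07 (SE 0.53, 95% interval -1.25 to 1.11; adjusted p = 0.972). The sign of the latter was opposite without replicate 2 of that label (0.44), without its replicate 3 (0.11) and without WT replicate 2 (0.14). The shared estimate of spread includes the wide group labelled Carm1-/-, in which the highest Vgll4 value was 7.09 times the lowest. With only the groups compared fitted, the difference under the H3R17H label was again -0.49 and did not pass (limma, SE 0.29, adjusted p = 0.354). It did not pass without replicate 1 labelled Carm1-/- either (limma, SE 0.33, adjusted p = 0.454).

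Across the 6 genes no member passed in limma in any of the 3 comparisons (adjusted p under 0.05), and 0% of the 11850 tested genes did in each. At an unadjusted p under 0.05 there was 1 member, Yap1, in Carm1-/- vs WT, where 6.19% of tested genes were lower and 5.25% higher by this measure. Yap1 was also the only such member in Carm1-/- vs H3R17H, where 4.12% of tested genes were lower and 4.09% higher. In H3R17H vs WT there was none, against 7.75% lower and 6.41% higher. Without overlap of the groups, 2 of 6 members, Yap1 and Vgll4, were lower in H3R17H vs WT, against 15.6% of tested genes, and 1 of 6, Yap1, in Carm1-/- vs WT, against 9.71%. No member was higher without overlap, against 13.3% and 6.91% of tested genes. In Carm1-/- vs H3R17H no member was free of overlap, against 5.13% of tested genes higher and 6.07% lower. By sign alone, 5 of 6 members were lower in H3R17H vs WT (52.3% of tested genes lower, 47.7% higher), 4 in Carm1-/- vs WT (53.7% lower, 46.3% higher) and 2 in Carm1-/- vs H3R17H (51% lower, 49% higher). The members' median log2 difference was -0.4 in H3R17H vs WT and -0.16 in Carm1-/- vs WT, beside -0.03 and -0.04 over all tested genes. These 2 comparisons share the WT libraries. All 6 members had passed the filter on low values, so none was lost to it.

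**Figure D4:**
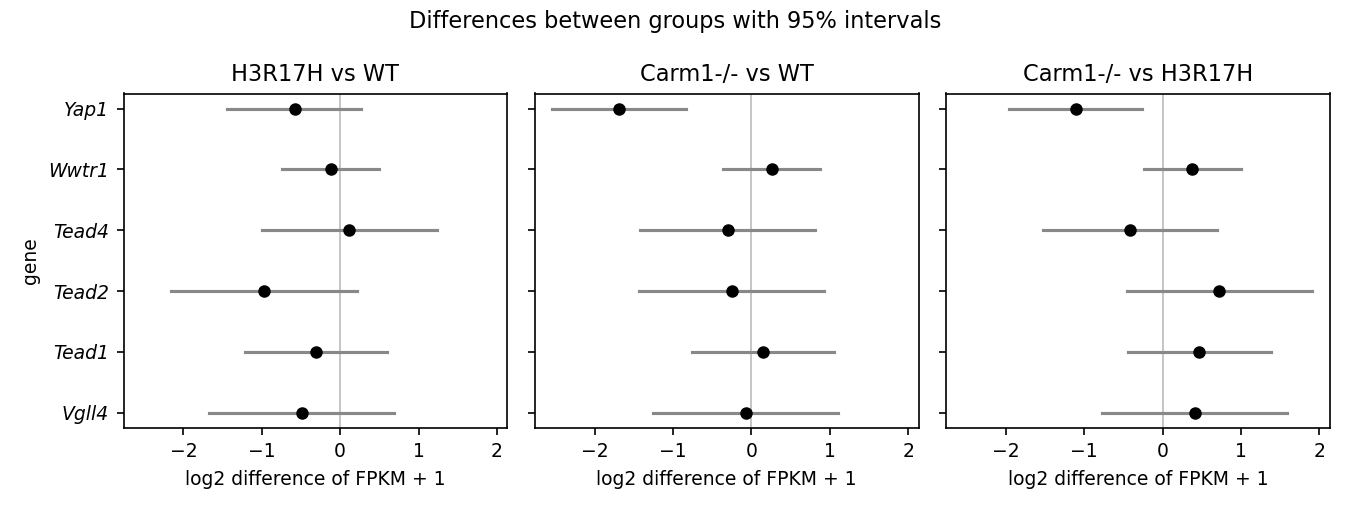
Log2 difference of FPKM + 1 for each effector gene in the 3 comparisons (points), with 95% intervals from limma (lines) and a grey line at no difference. The interval of Yap1 lies below 0 in Carm1-/- vs WT (-2.54 to -0.84) and in Carm1-/- vs H3R17H (-1.96 to -0.26), though neither passes after adjustment over all genes, and all other intervals include 0.

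The genes whose course over the 9 libraries lay nearest to Yap1 were Usp25, Ocln, Zfp36l2, Nudt5 and Pigz. Nearness was the root mean square difference of log2(FPKM + 1), each gene centred on its mean, over 10435 genes. It was 0.23 for Usp25 and Ocln, 0.27 for Zfp36l2 and 0.29 for Nudt5 and Pigz, beside a spread of Yap1 itself of 0.79. Ocln, which encodes the tight junction protein occludin, had 9.47, 12.7 and 8.02 FPKM in WT replicates 1 to 3. Its values were 6.94, 3.33 and 9.21 FPKM under the H3R17H label and 2.41, 1.91 and 2.39 FPKM under the Carm1-/- label. Like Yap1, Ocln was lowest under the Carm1-/- label, replicate 1 included, and low in replicate 2 labelled H3R17H. This likeness follows from the choice of genes by nearness and is no separate result. The other members were far from this course: 53.9% of the compared genes were nearer to Yap1 than Tead1, its closest partner on the list. Among members the nearest pair was Tead2 and Vgll4, at 0.52, and 4.23% of genes were nearer to Tead2 than Vgll4 was. Tead4 was nearest to Arnt, Kat7 and Fbxw8 (0.28 to 0.31), Wwtr1 to Adrb3, Pvt1 and Fam32a (0.14 to 0.16), and Vgll4 to Adck2, Ilk and Wwox (0.23 to 0.26). Tead1 was nearest to Repin1, Arfip1 and Nipa2 (0.14 to 0.2), and Tead2 to Platr22, Ctdsp1 and Commd10 (0.22 to 0.25). The measure favours genes of like spread, and libraries of 1 label share their condition.

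The rest of the pathway was read from 8 lists that hold 79 symbols, of which 65 matched the table and 57 were tested. None passed in limma in any comparison, the lowest adjusted p being 0.235. At an unadjusted p under 0.05, 3 of the 57 were higher and 9 lower in H3R17H vs WT (all tested genes 6.41% and 7.75%), and 1 higher and 5 lower in Carm1-/- vs WT (5.25% and 6.19%). In Carm1-/- vs H3R17H 1 was higher and 4 lower (4.09% and 4.12%). Without overlap of the groups 17 were lower and 4 higher in H3R17H vs WT (all tested genes 15.6% and 13.3%), and 10 lower and 3 higher in Carm1-/- vs WT (9.71% and 6.91%). In Carm1-/- vs H3R17H 4 were lower and 0 higher (6.07% and 5.13%). Their median log2 difference was -0.12, -0.22 and 0.05 in these comparisons, beside -0.03, -0.04 and -0.01 over all tested genes. The genes named below are mostly those with the smallest p among the ones whose groups did not overlap.

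Upstream of Yap, 10 of 11 Hippo kinases and their scaffolds were tested, with medians of 0.08 in H3R17H vs WT and 0.01 in Carm1-/- vs WT. Stk3, which encodes the kinase Mst2, was at 4.53 to 7.32 FPKM in WT, 2.2 to 4.32 FPKM under the H3R17H label and 2.13 to 3.91 FPKM under the Carm1-/- label. Both edited groups lay below WT (log2 difference -0.68 and -0.67; limma, adjusted p = 0.396 and 0.482). Stk4, which encodes the related kinase Mst1, was at 7.93 to 8.3 FPKM in WT. It lay above WT under the H3R17H label, at 8.59 to 11.3 FPKM (log2 difference 0.2, limma, adjusted p = 0.782). Under the Carm1-/- label Stk4 lay below WT, at 4.61 to 7.72 FPKM (log2 difference -0.35, limma, adjusted p = 0.64). Taok1, a kinase that activates Mst, was at 1.4 to 4.85 FPKM in WT and 7.36 to 8.71 FPKM under the H3R17H label (limma, adjusted p = 0.237), and lay within the WT range under the Carm1-/- label. Of 13 tested upstream regulators the medians were -0.53 and -0.22. Rassf1, a partner of the Mst kinases, was at 40.2 to 54.8 FPKM in WT and 5.23 to 34.6 FPKM under the H3R17H label (limma, adjusted p = 0.259). Ajuba, which restrains Lats, was at 4.18 to 4.89 FPKM in WT. It lay below WT in all 6 edited libraries, at 1.75 to 4.15 FPKM under the H3R17H label and 0.252 to 3.87 FPKM under the Carm1-/- label (limma, adjusted p = 0.606 and 0.445).

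Genes that hold Yap in the cytoplasm or mark it for degradation had medians of -0.26 in H3R17H vs WT and -0.34 in Carm1-/- vs WT over 11 tested, with 5 and 3 of them below WT without overlap, against 15.6% and 9.71% of tested genes. In H3R17H vs WT 1 lay above WT without overlap: Sfn, another 14-3-3 gene, at 704 to 861 FPKM in WT and 965 to 1102 FPKM under the H3R17H label (limma, adjusted p = 0.369). Under the Carm1-/- label Sfn was at 769 to 1266 FPKM and overlapped WT. Ywhah, which encodes the eta form of the 14-3-3 proteins that bind phosphorylated Yap, was at 128 to 172 FPKM in WT, 70.9 to 114 FPKM under the H3R17H label and 80 to 99.3 FPKM under the Carm1-/- label. It lay below WT in all 6 edited libraries (limma, adjusted p = 0.248 and 0.3). Ywhaz, another form, was at 140 to 175 FPKM in WT but at 128, 27.4 and 34.3 FPKM in replicates 1 to 3 under the Carm1-/- label (adjusted p = 0.266), replicate 1 being the one near WT. Ywhaz lay below all WT values under the H3R17H label too, at 96.4 to 133 FPKM (limma, adjusted p = 0.721). Btrc, a ubiquitin ligase subunit that recognises Yap, was at 70.2 to 82.7 FPKM in WT and 31.8 to 60.1 FPKM under the H3R17H label (adjusted p = 0.283).

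Of 3 other Tead cofactors listed 2 relatives of Vgll4 were tested. Vgll3 was at 2.78, 2.98 and 5.39 FPKM in WT replicates 1 to 3 and at 1.8, 0.629 and 1.39 FPKM under the H3R17H label. Under the Carm1-/- label it was at 1.78, 0.429 and 0 FPKM, so that all edited libraries lay below WT (limma, adjusted p = 0.332 and 0.266). Vgll1 was at 1.52 to 7.98 FPKM in WT and 0 to 1.18 FPKM under the H3R17H label (adjusted p = 0.295), and at 6.4 FPKM in replicate 1 labelled Carm1-/-, within the WT range. Of 7 chromatin cofactors, with medians of 0.05 and 0.03, only Arid1a, a subunit of the SWI/SNF remodeller, did not overlap WT. It was at 24.2 to 27.1 FPKM in WT, 10.1 to 16.9 FPKM under the H3R17H label and 12.3 to 21.2 FPKM under the Carm1-/- label (adjusted p = 0.248 and 0.437). Of 5 tested AP-1 genes, whose products often bind beside Tead, Jun was at 2.91 to 4.5 FPKM in WT and 8.77 to 10.2 FPKM under the Carm1-/- label (adjusted p = 0.317). Jun was at 10.3, 3.45 and 11.6 FPKM in replicates 1 to 3 labelled H3R17H, where it overlapped WT (limma, adjusted p = 0.347). Junb had 0.0242 to 1.02 FPKM in WT and 1.88 to 2.82 FPKM under the H3R17H label (adjusted p = 0.235). Under the Carm1-/- label Junb was at 0.0221 to 0.71 FPKM and overlapped WT (log2 difference -0.09, limma, adjusted p = 0.946). The medians of the 5 AP-1 genes were 0.71 in H3R17H vs WT, with 2 lower by sign, and -0.09 in Carm1-/- vs WT, with 3 lower.

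Downstream, no target passed. Of 24 symbols of a Yap target signature 8 were tested, with medians of -0.24 in H3R17H vs WT and -0.45 in Carm1-/- vs WT. Against 15.6% and 9.71% of all tested genes, 2 and 1 of these 8 lay below WT without overlap. Under the H3R17H label these were Myof, a membrane repair gene, at 0.925 to 2.34 FPKM in WT and 0.00537 to 0.629 FPKM (limma, adjusted p = 0.331), and Lats2, the kinase that is also a Yap target, at 3.92 to 4.65 FPKM in WT and 2.69 to 3.73 FPKM (adjusted p = 0.801). Ctgf, a classic Yap target, was at 6.11, 4.64 and 4.1 FPKM in WT replicates 1 to 3, at 32.5, 19 and 4.07 FPKM under the H3R17H label and at 3.74, 2.85 and 0 FPKM under the Carm1-/- label. It lay below WT in the latter (limma, adjusted p = 0.541) and overlapped it in the former. Cyr61, the other classic target, had the opposite sign to Ctgf under the Carm1-/- label. Its values were 10.3, 44.3 and 11.4 FPKM in WT, 28.6, 55.4 and 19.6 FPKM under the H3R17H label and 31.5, 72.8 and 18.6 FPKM under the Carm1-/- label, with overlap (log2 difference from WT 0.81 and 0.96; limma, adjusted p = 0.574 and 0.554). Replicates 1 to 3 labelled H3R17H had Yap1 at 7.18, 3.1 and 8.24 FPKM beside Ctgf at 32.5, 19 and 4.07 FPKM. Ctgf lay above all WT values in replicates 1 and 2 of that label. Gata3, which Tead4 activates in trophectoderm, was at 277 to 369 FPKM in WT, 147 to 219 FPKM under the H3R17H label and 276, 73.9 and 77.7 FPKM in replicates 1 to 3 under the Carm1-/- label. It lay below WT in all 6 edited libraries (adjusted p = 0.411 and 0.281), only narrowly in replicate 1 labelled Carm1-/-. Cdx2, the trophectoderm regulator downstream of Yap and Tead4, was at 5 to 10.2 FPKM in WT, 2.34 to 6.52 FPKM under the H3R17H label and 12.7, 0.602 and 0.142 FPKM in replicates 1 to 3 under the Carm1-/- label. Sox2, an inner cell gene that Yap and Tead4 hold down in outer cells, was at 1.18 to 3.14 FPKM in WT, 0.135 to 1.38 FPKM under the H3R17H label and 0.118 to 3.14 FPKM under the Carm1-/- label, with overlap (log2 difference -0.98 and -0.82; limma, adjusted p = 0.434 and 0.566). Gata3 and Cdx2 are also on the trophectoderm list, whose sums are given above. In replicate 1 labelled Carm1-/- the highest Cdx2 of the series went with Yap1 at 3.45 FPKM. In replicates 2 and 3 of that label Cdx2 at 0.602 and 0.142 FPKM went with Yap1 at 1.42 and 1.88 FPKM. Whether target RNA follows Yap1 RNA was not tested. The part of cell makeup in these values was not tested.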

How the data were processed

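The authors deposited 1 table of FPKM with a column for each of 9 libraries, named as FPKM per the labels; columns were matched to samples through the sample descriptions, and groups came from the titles. Bowtie 0.12.2 appears in the submitters' processing notes, as do mm10 and GRCm38, without a stated role. Which quantifier and annotation were used is not stated there or in the labels. Depth is unknown, and FPKM of the Tead paralogues cannot be checked for shared reads.

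Values were tested as log2(FPKM + 1) on the 11850 genes that reached 1 FPKM in 3 or more libraries, in a single limma fit of all 9 libraries with an intensity trend, two-sided. P-values were adjusted by the Benjamini-Hochberg method across these genes, and 0.05 was the threshold. The 3 groups share 1 estimate of spread, and intervals are at 95% and unadjusted. The fit was tested on simulated data with independent normal noise and the same spread of a gene in every group. That simulation held no difference of spread between groups and no effect of sex, so it does not check the fit for these. Other genes were named by the smallest p among list members whose groups did not overlap, up to 3 for each list and comparison, not all of which are reported, and by nearness of pattern, without predicted gene models. Cdx2, Sox2, Sfn, Cyr61, Xist and the markers of cell type were named outside this rule, after their values were seen. The members and lists were chosen with earlier results of these data known. Gene positions, counted from 1, come from GENCODE M21 (GRCm38), and upstream sequences are from RefSeq. Alternatives changed 1 choice at a time: the pseudocount, filter, scaling, trend, weights, libraries fitted, a replicate block, a sex term and each library left out. R 4.3.3, limma 3.58.1, Python 3.11.15, pandas 2.3.3, numpy 2.4.6 and matplotlib 3.10.9 were used.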

Additional observations from a re-analysis of the deposited data

How the results depend on the processing

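For the effectors, 337 of 357 values under the alternatives kept their direction and their side of the threshold, 1 passed it (Yap1 in Carm1-/- vs WT, above) and 19 changed sign, all for differences that passed in no setting. Yap1 kept its sign throughout: -2.07 to -0.97 in Carm1-/- vs WT, -0.81 to -0.2 in H3R17H vs WT and -1.47 to -0.6 in Carm1-/- vs H3R17H. With each library left out, the differences whose sign changed ranged in H3R17H vs WT from -0.32 to 0.03 for Wwtr1 and -0.08 to 0.29 for Tead4; in Carm1-/- vs WT from -0.14 to 0.41 for Tead1, -0.62 to 0.29 for Tead2, -0.72 to 0.39 for Tead4 and -0.77 to 0.44 for Vgll4; and in Carm1-/- vs H3R17H from -0.28 to 0.92 for Vgll4 and -0.83 to 0.28 for Tead4. Other changes of sign were in H3R17H vs WT 0.11 for Tead1 and 0.16 for Vgll4 with a sex term and -0.03 for Tead4 with array quality weights, and in Carm1-/- vs WT 0.57 for Vgll4 with a sex term, 0.02 for Vgll4 with a pseudocount of 5 and -0.07 for Tead1 with array quality weights; the cause was not tested. Tead1 has no value under the filter on a mean of 5 FPKM.

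Over all genes, 0 passed in each comparison as reported. In H3R17H vs WT limma called 1 gene with a pseudocount of 5, 240 when only the groups compared were fitted, 192 with array quality weights and 0 to 125 with a library left out. In Carm1-/- vs WT it called 1 with a pseudocount of 0.1, 1 with array quality weights and 0 to 549 with a library left out, the most without replicate 1 labelled Carm1-/-. In Carm1-/- vs H3R17H it called 1 with a pseudocount of 0.1, 1 with a pseudocount of 5, 2 with median-of-ratios scaling, 2 with quantile normalization, 3 with no trend and 0 to 10 with a library left out. Same-numbered libraries correlated at -0.05 to 0.18 in their deviations from the group mean, and differently numbered ones of different groups at -0.25 to 0.27. With so few libraries in a group, this cannot show whether same-numbered libraries share more than a number. With the replicate block limma called 0 genes in each comparison, and Yap1 in Carm1-/- vs WT had a difference of -1.69 (adjusted p = 0.244).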
